A study of Mus musculus with 2 samples.

Results

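The expression of 7 surface proteins was compared with that of their own mRNAs in immune cells of visceral adipose tissue (VAT). The 7 genes, Cd4, Cd8b1, Cd3e, Il2ra, Cd69, Cd44 and Cd1d1, were chosen because each had both an mRNA column and a column of the matching AbSeq antibody (CD4, CD8b, CD3, CD25, CD69, CD44 and CD1d), among 26981 genes and 10 antibodies in all. AbSeq antibodies carry an oligonucleotide tag, so that bound antibody and mRNA are both counted as unique molecular identifiers (UMIs) in the same cell. Wild-type C57BL/6 specific pathogen-free mice of 15 weeks had received normal water (NW) or drinking water with ampicillin, vancomycin, streptomycin and colistin (ABX). CD45+ cells were enriched from VAT on magnetic beads and captured on the BD Rhapsody platform, with 1 library per condition. The number of mice behind each library is not given in the sources used here. With 1 library per condition there was no replicate check, no test between NW and ABX was possible, and every interval below covers counting error only.

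CD4 and CD8 are the co-receptors of the T cell receptor (TCR) for MHC class II and class I, and CD3ε is an invariant chain that the TCR needs to reach the surface. CD25, encoded by Il2ra, is the α chain of the high-affinity interleukin-2 receptor and is abundant on regulatory T (Treg) cells and group 2 innate lymphoid cells (ILC2s). CD69 is an early activation and tissue-retention molecule, CD44 is a hyaluronan receptor carried by most leukocytes, and CD1d presents lipids to natural killer T (NKT) cells. Surface protein and mRNA of a gene can part in a cell because they are made and lost at different speeds.

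In the GRCm38 assembly, the files' build, and the GENCODE M21 annotation, Cd4 spans chr6:124864692-124888221, Cd69 chr6:129267325-129275436 and Cd8b1 chr6:71322788-71337494. Cd3e spans chr9:44998740-45009627 and lies beside Cd3d and Cd3g, the genes of the other CD3 chains. Il2ra spans chr2:11642807-11693193, Cd44 chr2:102811141-102901665 and Cd1d1 chr3:86995834-86999441. The mRNA values are counts over the whole gene and do not separate isoforms.

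After filtering, 12474 NW and 12724 ABX cells remained, with a median of 5092 and 3845.5 gene UMIs and of 238 and 209 antibody UMIs per cell. Of the retained barcodes, 196 occurred in both libraries. Cells were clustered on mRNA without the 7 genes and without antibodies, and 17 classes with at least 50 cells in each library were compared. Endothelial-like and fibroblast-like cells were present in spite of the CD45 selection. The antibody counts were very unequal between cells: the 1% of cells with the most antibody UMIs held 55.9% of the antibody UMIs of the NW library and 22.9% of those of the ABX library. The barcodes left out held 50.4% and 64.3% of all antibody UMIs of the deposited libraries. Medians over cells are therefore given first, and means where the comparison was set on them. The methods of the study name 8 staining antibodies, and CD3 and NK-1.1 are 2 antibody columns of the files that are not among them, so whether the cells had been stained with CD3 antibody could not be told.

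The CD4 antibody separated the Cd4-expressing T cells from all other classes. Naive-type T-like cells carried no Cd8a UMI, and their cluster had Cd8b1, Tcf7 and Lef1 among its leading genes. They had a median of 83.5 CD4 UMIs per cell in NW (quartiles 50 and 121.5, 54 cells) and 71 in ABX (34 and 119, 201 cells). Treg-like cells, led by Foxp3, Ctla4 and Ikzf2, had medians of 38 (16 and 72, 347 cells) and 18 (7 and 51, 125 cells). T-like cells of the Trat1- and Trac-led cluster without a Cd8a UMI, called Cd8a- T-like below, had medians of 38 (10 and 72, 350 cells) and 15 (3 and 59.25, 312 cells). The quartile ranges of these 3 classes overlapped, and in each library the naive-type cells had the highest median. Among the other 14 classes no median was above 6. Cd4 mRNA followed the same division, with 738 and 660 UMIs per 1000000 gene UMIs of the class (CPM) in naive-type cells, 587 and 422 in Cd8a- T-like cells and 492 and 462 in Treg-like cells (NW and ABX). In gdT-like cells, which are γδ T cells by Trdc and Tcrg-C1 and do not depend on CD4, the median antibody count was 1 in NW and 0 in ABX, with 11 and 5.34 CPM of Cd4. The CD4 effector T-like cluster, with 154 NW but 44 ABX cells too small for the comparison, had a CD4 median of 75.5 in both libraries and 587 and 522 CPM of Cd4.

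CD8b and Cd8b1 were high together in 1 immune class. Cd8a+ T-like cells had a median of 46 CD8b UMIs in NW (quartiles 26 and 124.5, 82 cells) and 30 in ABX (15 and 72, 109 cells), with 1144 and 1054 CPM of Cd8b1. These cells came from the Trat1-led and the naive-type clusters and were set apart by a UMI of Cd8a, the gene of the partner chain of the CD8 heterodimer, which lies 35932 bases from Cd8b1. The other immune classes had CD8b medians of 4 to 12 and Cd8b1 levels of at most 59.4 CPM. Endothelial-like cells went against this order: their CD8b medians, 143 in NW and 127 in ABX, were the highest of all classes, while 0 of 106 NW cells and 0.877% of 228 ABX cells held a Cd8b1 UMI.

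The CD3 antibody and Cd3e did not run in parallel over the classes. In the T-like classes of the comparison Cd3e was high, from 679 CPM in Treg-like to 1163 CPM in gdT-like cells of NW. It was at most 65.7 CPM in the classes without a TCR. The CD3 antibody medians of those T-like classes were 5 to 13. Macrophage-like cells had 10 in both libraries, and mature DC-like cells 15 in NW and 14 in ABX. Among the T-like classes of the comparison, gdT-like cells had the most CD3 antibody (13 in NW and 11 in ABX) and also the most Cd3e. CD4 effector T-like cells, outside the comparison, had NW medians of 15 with a Cd3e UMI (133 cells) and 14 without (21 cells). Endothelial-like cells again had the highest medians, 67 and 71, at 14.0 and 12.2 CPM of Cd3e. For the antibody against the TCR β chain, which has no member mRNA, the medians were 66.5 and 48 in naive-type cells and 63 and 46 in Cd8a+ T-like cells. They were 9 and 7 in gdT-like cells, which carry another receptor. Treg-like cells had 34 and 17, Cd8a- T-like cells 22.5 and 18.5, and NKT-like cells 15 and 12. Classes without a TCR reached similar values, with 17 and 18 in macrophage-like and 16 and 13 in cDC1-like cells.

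CD25 and Il2ra shared their high immune classes, except that Treg-like cells of ABX were high in the mRNA alone. ILC2-like cells had a median of 36 CD25 UMIs in NW (quartiles 20 and 63, 731 cells) and 42 in ABX (22 and 72.5, 1211 cells), with 1358 and 1559 CPM of Il2ra. Treg-like cells had medians of 25 (10.5 and 69) and 9 (5 and 18), with 1413 and 994 CPM. The gdT-like cells had medians of 18.5 and 18, with 846 and 862 CPM. Mature DC-like cells, dendritic cells with Fscn1 and Ccl22, stood next with 19 and 12 CD25 UMIs and 265 and 224 CPM. All other immune classes had CD25 medians of 4 to 10, a range that held the Treg-like median of ABX, and at most 74.6 CPM of Il2ra. Endothelial-like cells, at 22.7 and 17.6 CPM, had CD25 medians of 82.5 and 73.5.

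CD69 antibody and Cd69 mRNA were ordered differently. In NW, Cd69 was highest in naive-type T-like cells (277 CPM), Cd8a+ T-like cells (215 CPM), Treg-like cells (206 CPM) and ILC2-like cells (204 CPM), and the counting intervals of these 4 values overlapped. The CD69 antibody median was 18 in ILC2-like cells but 5.5 in naive-type cells. Plasma cell-like cells, with 158 CPM of Cd69, had a CD69 median of 6, and mature DC-like cells, with 3.31 CPM, had a median of 11. In ABX the ILC2-like median was 9, at 108 CPM. Endothelial-like cells had the highest CD69 medians, 59.5 in NW and 59 in ABX, at 6.98 and 7.64 CPM of Cd69.

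CD44 was counted in every class, and neutrophil-like cells were highest in antibody median and in mRNA. Their CD44 medians were 328 in NW (quartiles 183 and 413, 63 cells) and 348 in ABX (225 and 462.5, 55 cells), with 1775 and 1900 CPM of Cd44. Below them, mature DC-like, cDC1-like (conventional type 1 dendritic cells, with Xcr1 and Clec9a), gdT-like and monocyte-like cells had NW medians of 232 to 239, at 354 to 561 CPM. By mean antibody UMIs, monocyte-like cells were above neutrophil-like cells in NW, at 478 against 328. In ABX they were below, at 278 against 345. Natural killer (NK)-like cells departed from the order, with 430 and 378 CPM of Cd44 but CD44 medians of 44 and 42. The monocyte-like cluster was led by Mmp12 and Gpnmb beside the monocyte markers Chil3 and Fn1.

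Cd1d1 was sparse in all classes, at 0 to 62.9 CPM. Mature DC-like cells had the highest level in each library, 56.2 and 62.9 CPM, with CD1d medians of 16 and 12. B cell-like cells had medians of 15.5 and 14 at 31.3 and 23.8 CPM, and macrophage-like cells had 13 and 12 at only 8.62 and 8.43 CPM. Naive-type T-like cells, at 47.1 and 48.7 CPM, had medians of 8 and 7. Endothelial-like cells had the highest CD1d medians, 63 in NW and 33 in ABX, at 14.0 and 8.40 CPM. The plot of levels by class shows the 7 pairs side by side.

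**Figure D1:**
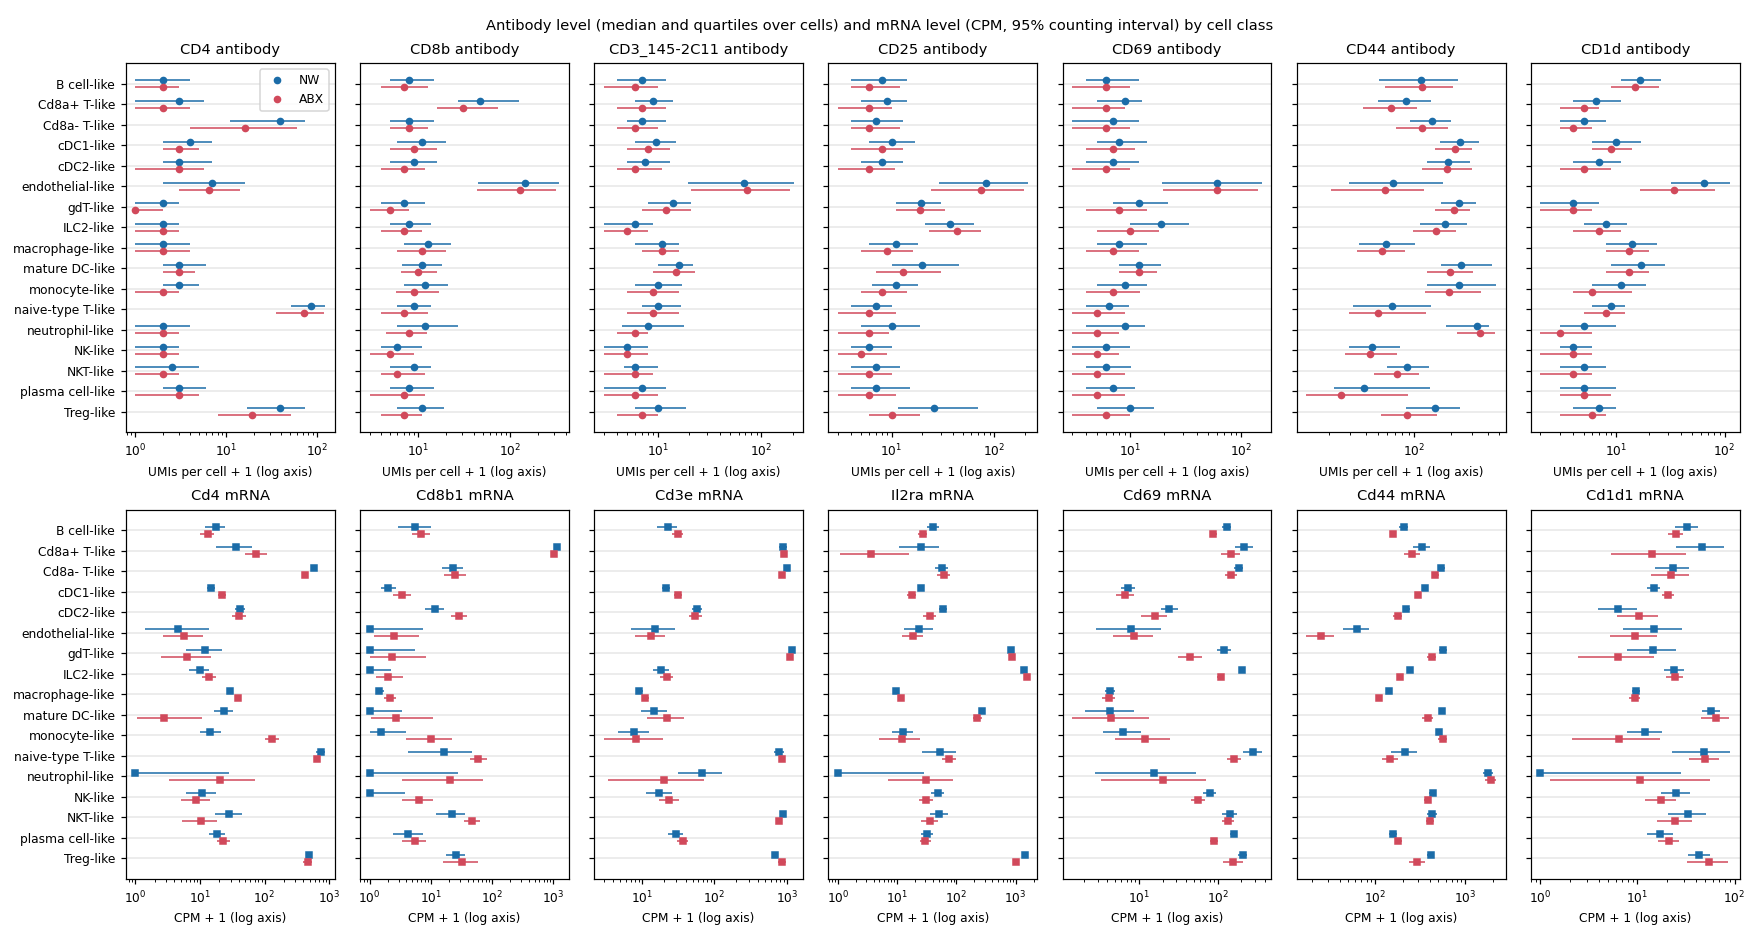
Upper row, antibody UMIs per cell plus 1 on a log axis for 17 cell classes, with points at the median and lines over the quartiles of the cells; lower row, CPM plus 1 of the own mRNA on a log axis, with lines over the 95% counting interval. Blue is NW and red is ABX. CD4 and CD8b stand out where their mRNAs do, and endothelial-like cells are highest for 5 of the 7 antibodies without a high mRNA.

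The rank agreement over the 17 classes was summarised by Spearman's rho between mean antibody UMIs per cell and CPM, given as a description because classes of a library share mice, depth and antibody pool. In NW rho was 0.71 for CD4 and 0.52 for CD44, and at most 0.11 for the other 5 pairs. In ABX it was 0.67 for CD4 and 0.49 for CD44, and at most 0.07 for the rest. Thus 2 of 7 pairs in NW and 1 of 7 in ABX reached 0.5, and for antibodies set against the mRNA of another member the shares were 1.59% and 0.0% of 63. CD69 had negative values, -0.23 and -0.50, and so had CD3, -0.24 and -0.36. With medians in place of means CD44 came to 0.66 and 0.59 and CD4 to 0.57 and 0.43.

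For CD4 and CD8b with mean antibody UMIs, no other class raised rho as much when left out as the endothelial-like class. Without it rho of CD4 was 0.89 in NW and 0.85 in ABX, and that of CD8b 0.25 and 0.18. Within the 10 lymphoid classes and with medians, an alternative chosen after the data had been seen, 5 pairs in NW and 4 in ABX reached 0.5. There rho was 0.94 and 0.90 for CD4, 0.86 and 0.45 for CD8b, 0.62 and 0.87 for CD3, 0.51 and 0.73 for CD25, and 0.57 and 0.62 for CD1d. CD44 stood at 0.45 and 0.41 and CD69 at 0.36 and -0.17.

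**Figure D2:**
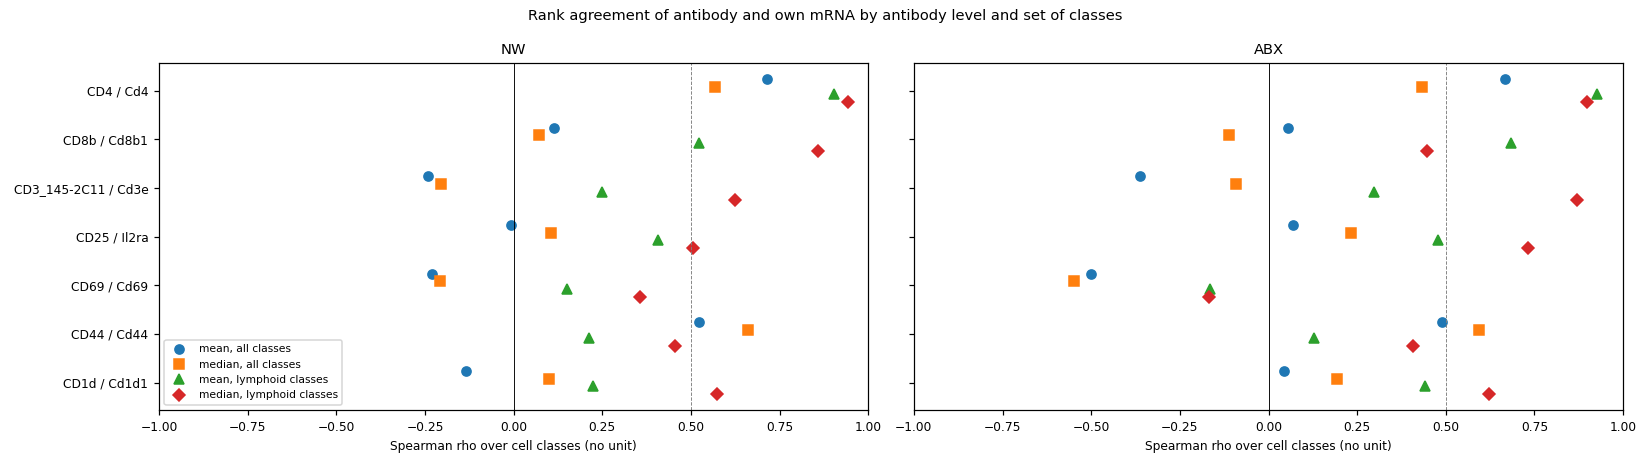
Spearman's rho between antibody and own mRNA over cell classes for each pair, in NW (left) and ABX (right), with the mean or the median as antibody level and with all 17 classes or the 10 lymphoid classes. The dashed line marks 0.5; CD4 is right of it for 4 of 4 settings in NW, and CD69 is left of it throughout.

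**Figure D3:**
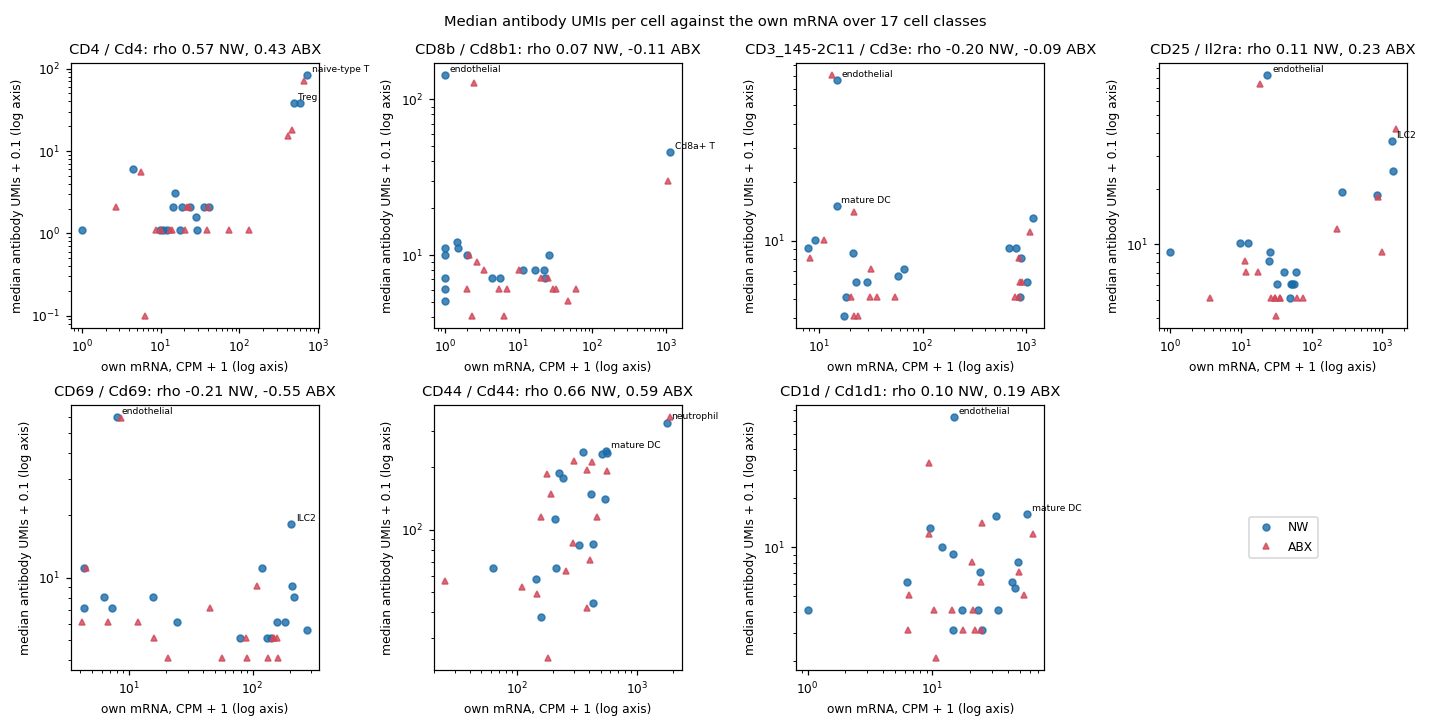
Median antibody UMIs per cell plus 0.1 against CPM plus 1 of the own mRNA, both on log axes, 1 point per class and library (blue circles NW, red triangles ABX), with rho of the medians in each title and the 2 highest NW classes named. CD4 and CD44 run upward, and the endothelial-like point lies far above the rest for CD8b, CD3, CD25, CD69 and CD1d.

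Each antibody was also set against all member mRNAs. By Pearson's r on the log scale with mean antibody UMIs, its own mRNA ranked first among the 7 for 5 antibodies in each library. These were CD4, CD8b, CD25, CD44 and CD1d, whereas for CD3 and CD69 Il2ra ranked first. For CD8b and CD1d the first place came with r near 0, at 0.07 and -0.08 in NW. For CD3 and CD69, Il2ra was first only as the least negative member. Its r was -0.21 and -0.01 in NW and -0.28 and -0.20 in ABX. With medians the same 5 antibodies had their own mRNA first, but Cd1d1 led for CD3 in NW. The r of Il2ra with CD25 was then 0.40 in NW and 0.42 in ABX, against 0.16 and 0.20 with means. All genes were likewise ranked with mean antibody UMIs. Among 10931 genes with at least 200 UMIs in each library, Cd4 had the highest r with the CD4 antibody (0.82 in NW and 0.78 in ABX), followed by Izumo1r and Als2cl. Cd44 ranked 488 for CD44, behind Adam8, Gpr35 and Etv6. For CD25 the leading genes were Igfbp7, Cdc42bpa and Wwtr1, and Il2ra ranked 3719. Cd8b1 ranked 4568 and Cd1d1 5915, while Cd3e at 9673 and Cd69 at 10563 stood near the lower end. Mxra7 was among the 3 leading genes for each of CD8b, CD1d, CD3 and CD69, with Tns2 beside it for CD3 and CD69, Cenpb for CD69, Mgp for CD3, Klkb1 and Adgrg1 for CD8b, and Pdgfa and C1s1 for CD1d.

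T, NK and ILC2-like cells were pooled and grouped by antibody count, so the groups can differ in their mix of classes. The share of these cells with a UMI of the own mRNA rose with the antibody count for CD4, CD25 and CD8b. For CD4 it was 1.90% of 1000 NW cells with 0 or 1 antibody UMIs and 82.5% of 154 cells with 100 or more, and in ABX 1.84% of 1687 and 80.8% of 120. The steepest step lay between 5 to 9 UMIs (26.8% in NW, 18.5% in ABX) and 10 to 19 UMIs (58.2% and 59.6%). For CD25 it was 12.0% of 125 NW cells and 8.04% of 286 ABX cells at 0 or 1 UMIs, and 93.2% of 278 and 90.0% of 400 at 50 to 99. For CD8b 0 of 219 NW cells with 0 or 1 antibody UMIs held Cd8b1, with an exact upper bound of 1.67%, and the share was 46.5% of 43 cells at 50 to 99. In ABX these shares were 1.34% of 374 and 37.5% of 40.

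The remaining pairs followed less closely. For CD3 the share with Cd3e reached 79.6% of 221 NW cells at 20 to 49 antibody UMIs, and was 44.4% of 45 cells at 100 or more. For CD69 the NW share was 27.4% of 252 cells at 0 or 1 UMIs and 54.2% of 48 at 100 or more, whereas in ABX the values were 20.2% of 392 and 18.4% of 49. For CD1d the shares at 2 to 4 and 10 to 19 UMIs, 7.96% and 9.48% in NW, had overlapping intervals. Deeper cells hold more UMIs of every mRNA, and after thinning to 1000 gene UMIs per cell the CD4 shares were 0.657% and 44.7% in the same lowest and highest NW bins.

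**Figure D4:**
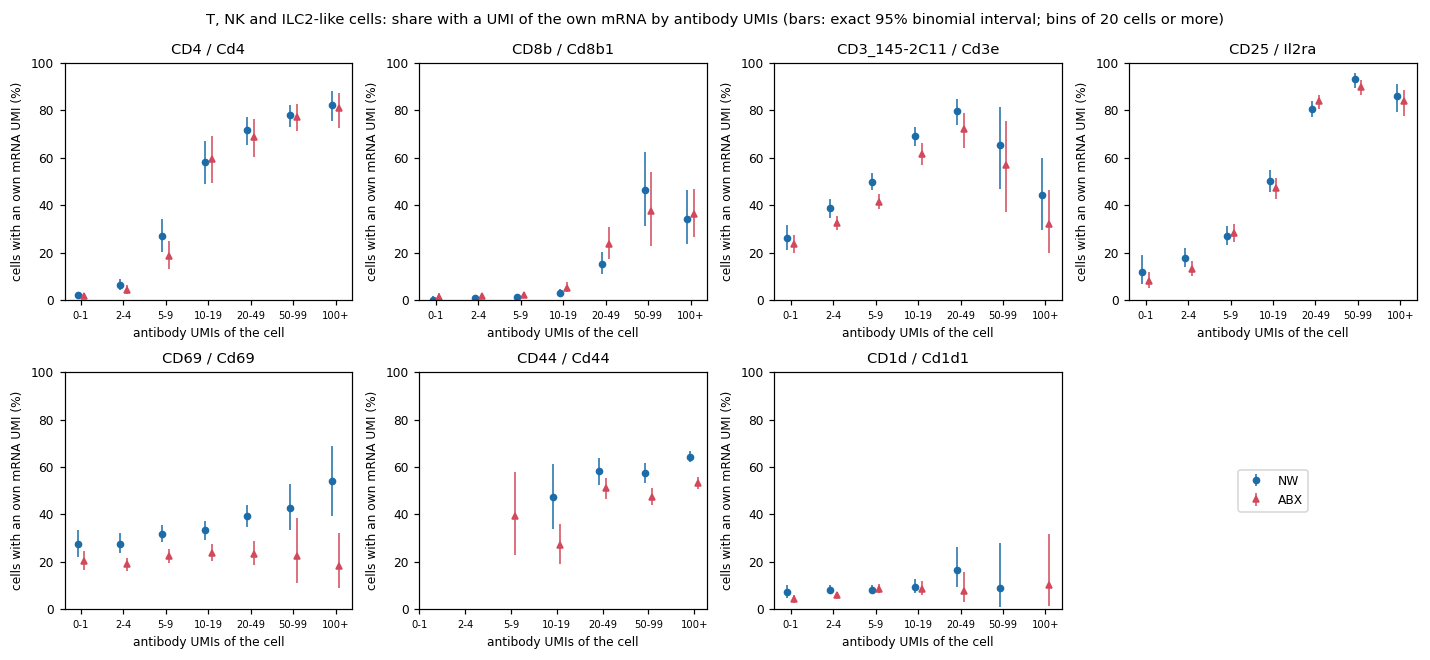
Share of T, NK and ILC2-like cells with at least 1 UMI of the own mRNA (percent, y axis) by the antibody UMIs of the cell (x axis, bins with at least 20 cells), NW as blue circles and ABX as red triangles, with bars for exact 95% binomial intervals. CD4, CD25 and CD8b climb steeply, and CD1d stays low.

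Most T-like cells high in only 1 of the CD4 and CD8b antibodies held its mRNA, while few of those high in both held Cd8b1. Among 987 NW and 791 ABX cells of the Treg-like, naive-type, Cd8a+, Cd8a- and CD4 effector T-like classes, 540 and 367 had at least 20 UMIs of CD4 antibody only. Cd4 was found in 78.3% (NW) and 81.5% (ABX) of them and Cd8b1 in 2.96% and 4.09%. Another 89 and 86 cells had at least 20 UMIs of CD8b only, with Cd8b1 in 76.4% and 81.4% and Cd4 in 16.9% and 10.5%. The 138 and 53 cells with both antibodies held Cd4 in 78.3% and 73.6% and Cd8b1 in 7.25% and 11.3%. Their Cd8b1 level was 48.0 and 70.5 CPM, against 11.3 and 21.4 in the CD4-only cells, and Cd8a was found in 6.52% and 11.3% of them against 0.0% and 0.817%. In the 220 and 285 cells with neither, Cd4 was found in 54.5% and 37.5%, at a median of 2491 and 2496 gene UMIs per cell against 3329.5 and 2967 in the CD4-only group.

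Within single classes, cells with a UMI of the own mRNA had more of the antibody than cells without in 42 of 62 class and pair combinations in NW and 47 of 71 in ABX, at like total UMIs. For antibodies against another protein the shares were 53.9% and 49.0%. Cd4 was the clearest, above 1 in 7 of 7 and 8 of 9 classes, with median ratios of 4.65 and 6.47. The gap differed between T-like classes, in medians not matched for depth. Treg-like cells had CD4 medians of 40 with and 31 without a Cd4 UMI in NW, and 18 and 17 in ABX. In Cd8a- T-like cells the medians were 47 and 7 in NW, and 48 and 3 in ABX. Cells with a Cd4 UMI also had more of the other antibodies in 84.1% of 63 combinations in NW and 53.1% of 81 in ABX. Cd44 was above 1 in 12 of 14 and 14 of 16 classes, with median ratios of 1.19 and 1.16. Il2ra was above 1 in 9 of 11 and 8 of 13 classes, Cd69 in 7 of 13 and 5 of 12, Cd3e in 4 of 8 and 5 of 11 and Cd1d1 in 3 of 9 and 6 of 9. Without the 5% of cells with the most antibody UMIs, an alternative added after the data had been seen, the counts were 52 of 60 and 55 of 68, beside 58.5% for other antibodies in each library.

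The classes differed in what accompanied a Cd4 UMI. Macrophage-like cells with a Cd4 UMI, 609 in NW and 494 in ABX, had median CD4 antibody counts of 6 and 9, against 1 in those without. Of the macrophage-like cells with Cd4 and at least 20 CD4 UMIs, 12.8% in NW and 6.11% in ABX also held Trac, the TCR α chain gene. In NW, by contrast, 26 of 29 such cDC2-like cells and 28 of 34 such cDC1-like cells held Trac, and in ABX 8 of 18 and 23 of 29. Plasma cell-like cells with a Cd4 UMI had CD4 medians of 12 in NW and 32 in ABX, against 2 and 1 without. Of those with a Cd4 UMI, 54.5% and 77.8% held Trac. Predicted doublets made up 17.2% of cDC1-like cells with a Cd4 UMI in NW and 8.05% in ABX, against 4.53% and 3.48% of those without. In cDC2-like cells these shares were 1.92% and 9.38% against 2.20% and 1.83%, and in macrophage-like cells 0.493% and 0.405% against 0.363% and 0.151%. The part of free RNA was not tested.

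Il2ra and CD25 went together in classes with much and with little Il2ra, in medians not matched for depth. ILC2-like cells with an Il2ra UMI had a CD25 median of 39 in NW (654 cells) and 44 in ABX (1095 cells), against 17 (77 cells) and 27 (116 cells) in those without, at medians of 4033 and 3523 gene UMIs against 2955 and 1652.5. Mature DC-like cells with Il2ra had 35.5 and 20, against 13 and 11.5. Treg-like cells with Il2ra had 30.5 and 11, against 13 and 7. In gdT-like cells the medians were 20.5 and 19 with Il2ra, against 13 in each library without. Among classes with little Il2ra, B cell-like cells had 11 and 7 with Il2ra, against 7 and 5. Their gene UMI medians were 7271 and 6313 with Il2ra, against 3793 and 3841.5. The cDC2-like cells had CD25 medians of 11 and 8 with Il2ra, against 7 and 5. For Cd69 in ILC2-like cells the medians were 20 and 10 with a UMI and 17 and 9 without.

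The NW and ABX libraries were compared class by class. A difference between them cannot be told apart from a difference between libraries. Of 119 gene and class combinations, 9 were at least 1.5-fold higher and 12 at least 1.5-fold lower in ABX with an interval that excluded 1. Among the 97 with at least 20 UMIs these were 7 and 10, and over all genes and classes with as many UMIs the shares were 3.82% higher and 3.53% lower. Cd69 was lower in 4 classes. In ILC2-like cells it fell from 204 to 108 CPM (ratio 0.530, 95% interval 0.468 to 0.60), and the CD69 median fell from 18 to 9. In gdT-like cells Cd69 fell from 119 to 44.0 CPM (0.371, 0.242 to 0.556) and the antibody median from 11 to 7. In plasma cell-like cells the values were 158 and 89.5 CPM (0.567, 0.484 to 0.663) with medians of 6 and 4, and in naive-type T-like cells 277 and 160 CPM (0.577, 0.411 to 0.818) with medians of 5.5 and 4. The mean of CD69 in naive-type cells went the other way, from 6.69 in NW to 8.38 in ABX.

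Il2ra was lower in B cell-like, NK-like, cDC2-like and Cd8a+ T-like cells, all of low level. The Cd8a+ T-like value rested on 1 UMI in ABX against 7 in NW, and the ratio in cDC2-like cells, 0.586, was 1.42 with clusters made jointly from mRNA and antibodies. In Treg-like cells it stood at 1413 CPM in NW and 994 in ABX (ratio 0.704, 0.622 to 0.794), short of 1.5-fold, while the CD25 median fell from 25 to 9 and the mean from 70.0 to 18.8. In the same cells Cd4 stood at 492 and 462 CPM (0.939, 0.779 to 1.13), with CD4 medians of 38 and 18, and Cd44 at 412 and 289 CPM with CD44 medians of 148 and 86. All antibody UMIs together had a median of 341 in NW and 182 in ABX Treg-like cells. Relative to all antibody UMIs of the class, the mean of CD25 was still lower in ABX (0.633), whereas those of CD4 (1.53) and CD44 (1.32) were higher. These relative values rest on means, to which few NW Treg-like cells contributed much. The CD69 antibody there had a mean of 38.3 UMIs, a median of 9 and a maximum of 5193.

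Cd8b1 was higher in ABX in 7 classes outside the Cd8a+ T-like cells, among them naive-type T-like (59.4 against 15.7 CPM), NKT-like (46.2 against 21.1 CPM) and cDC2-like cells (28.4 against 10.6 CPM). These values rested on 39 against 3 UMIs (ratio interval 1.20 to 19.1), 45 against 13 and 46 against 28. The NK-like call rested on 9 UMIs against 0 and the monocyte-like call on 5 against 1. In Cd8a+ T-like cells Cd8b1 was not higher, at 1054 against 1144 CPM. The whole library held 18.4 CPM of Cd8b1 in ABX and 8.04 in NW, and the part of RNA from other cells was not tested. Naive-type cells were those of their cluster without any Cd8a UMI, and their 95th percentile of CD8b was 36.2 UMIs in NW and 71 in ABX. Whether CD8 T cells without a Cd8a UMI remained among them was not tested. The CD8b medians of those 7 classes were all lower in ABX. By mean, CD8b was higher in ABX in 3 of them, at 24.2 against 13.2 UMIs in NKT-like, 46.8 against 23.7 in monocyte-like and 18.1 against 15.8 in naive-type T-like cells. Cd4 in monocyte-like cells was 9.63-fold higher (6.07 to 15.7), but 67 of the 72 ABX UMIs were in 1 cell. Cd4 was also higher in Cd8a+ T-like cells and lower in NKT-like and mature DC-like cells, Cd1d1 was lower in Cd8a+ T-like cells and Cd44 in endothelial-like cells. Cd3e was called in 0 of 17 classes, with a median log2 ratio of 0.10.

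Beside the 12 lower mRNA combinations, the antibody median was lower in 11 and equal in 1, and past 1.5-fold in 3. Beside the 9 higher ones the antibody median was higher in 0, and the mean was at least 1.5-fold higher in 3, CD8b in NKT-like and CD8b and CD4 in monocyte-like cells. Over the 119 combinations the median log2 ratio of the antibody medians was itself -0.26. A lower antibody median was thus the usual case, and by itself does not show that antibody followed mRNA. Of the 119, 23 were at least 1.5-fold lower and 0 higher, where all 10 antibodies gave 15.3% and 0.588%. By mean antibody UMIs 32 were lower and 6 higher (25.9% and 6.47% for all antibodies), and 5 of the 6 higher ones were in monocyte-like cells. Relative to all antibody UMIs of the class the counts were 11 and 11 (9.41% and 11.2%).

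**Figure D5:**
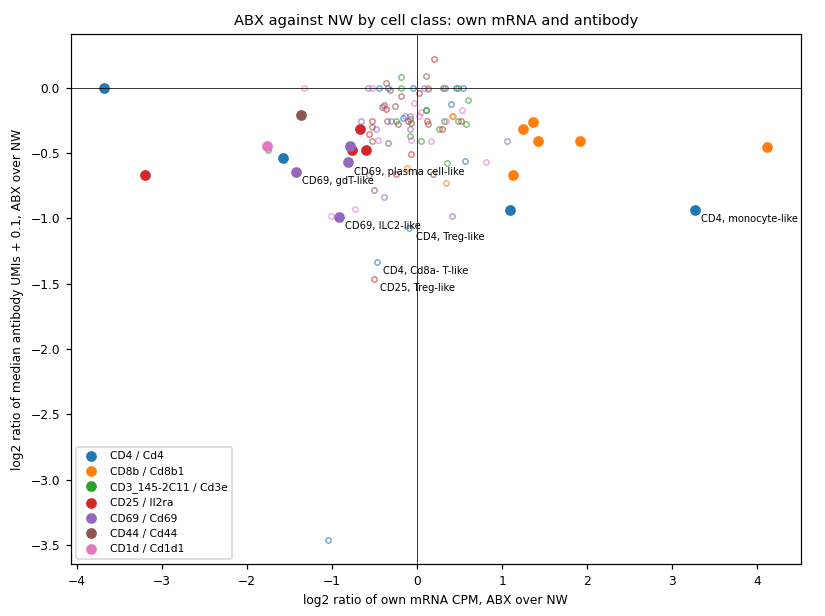
Log2 ratio of ABX over NW for the own mRNA (x axis) and for the median antibody UMIs plus 0.1 (y axis), 1 point per pair and class with UMIs in both libraries. Filled points are called for mRNA and open points are not; most points lie below 0 on the y axis, and the lowest open point is CD4 in gdT-like cells, whose medians were 1 and 0.

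The partner genes of these receptors, 15 of a list of 16, gave 25 higher and 10 lower combinations of 255. With at least 20 UMIs these were 24 and 9 of 210, beside the 3.82% and 3.53% over all genes. S1pr1, whose product drives exit from tissues and is held down by CD69, was lower in 4 classes, among them NK-like (44.9 against 89.1 CPM) and Cd8a- T-like cells (136 against 212 CPM). Klf2, which promotes S1pr1 transcription, was lower in Cd8a- T-like cells (228 against 382 CPM). In those cells Trdc (158 against 45.4 CPM) and Klrb1c, the NK-1.1 gene (192 against 73.2 CPM), were higher. Trdc fell from 3931 to 2166 CPM in gdT-like cells. Lck, the kinase bound by CD4 and CD8, was higher in Treg-like cells (475 against 304 CPM). B2m and Il2rg were called in 0 classes.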

How the data were processed

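The authors deposited UMI counts per cell for genes and AbSeq antibodies, made with version 1.8 of the BD Rhapsody WTA pipeline (per the file headers) on GRCm38 (per the study's methods); no normalization had been applied to the deposited counts. Cells with at least 500 gene UMIs, at least 200 genes and at most 25% mitochondrial UMIs were kept. Clusters were made in Seurat 5.3.0 (R 4.3.3; 2000 variable genes, 30 components, resolution 0.6, lymphoid clusters again at 1), without the 7 genes, and named from at least 3 markers raised 1.5-fold and found in 10% of cells. The further rules that left clusters unnamed and the Cd8a split were set after the clusters had been seen. The members and lists were chosen with earlier results of these data known.

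CPM are UMIs summed over a class per 1000000 gene UMIs. The log scales used pseudocounts of 0.1 (antibody UMIs) and 1 (CPM). Ratios have exact 95% intervals for Poisson counts, and shares have exact Clopper-Pearson intervals. A class difference was called at 1.5-fold, for mRNA with an interval that excluded 1. Cells with and without an mRNA UMI were compared within tertiles of total UMIs, with at least 20 cells on each side. Named genes are the 7 members, the partner list and the 3 genes of highest r for each antibody. Doublets were predicted per library with Scrublet (scanpy 1.11.5) and were left in; its automatic threshold marked 2.76% of NW cells but 0.00786% of ABX cells, so the NW threshold (0.223) was used for both (2.55% in ABX). The scripts were tested on simulated data. CD62L has an antibody column; its own mRNA is not analysed here.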

Additional observations from a re-analysis of the deposited data

Results flagged for a closer look

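These values come from antibody columns without a member mRNA and from barcodes that entered no comparison, and each lies above the limit that a count of 0 allows. The TCR-β antibody had its highest class median in endothelial-like cells, 276 in NW and 255 in ABX. NK-1.1 also had its highest class median there, 192 in NW and 199 in ABX, and in NK-like cells it stood at 24 and 20, below the 33 and 34 of macrophage-like cells. CD62L, a homing receptor of naive T cells, was highest in endothelial-like cells in NW, at 15, and in naive-type T-like cells in ABX, at 28. The barcodes left out by the filters held 50.4% of the antibody UMIs in NW and 64.3% in ABX, beside 5.81% and 6.22% of the gene UMIs.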

How the results depend on the processing

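No paired analysis was possible because each condition had 1 library and the labels share no replicate numbers. The number of pairs with rho of at least 0.5 in ABX, 1 in the report, was 2 with centered log ratios, with the share of all antibody UMIs, with clusters from weighted nearest neighbours of mRNA and antibodies, with at most 10% mitochondrial UMIs, without the 5% of cells with the most antibody UMIs, and, as alternatives added after the data had been seen, in the lymphoid classes alone, without endothelial-like and fibroblast-like cells on medians and with T clusters not split by Cd8a. It was 4 in the lymphoid classes on medians, where the NW number, 2 in the report, was 5. The NW number was 1 with the share of cells holding an mRNA UMI, before and after thinning. The own mRNA ranked first for 3 antibodies in ABX, in place of 5, over all clusters named or not. At 2-fold, 6 mRNA combinations were lower in ABX in place of 12. Of antibody means, 6 higher and 32 lower in the report, 11 and 11 passed relative to all antibody UMIs of the class, 0 were higher on medians, and 0 and 21 passed without the 5% of cells with the most antibody UMIs, also added after the data had been seen. Directions turned for Il2ra in cDC2-like cells (1.42) and Cd4 in monocyte-like cells (0.678) with the joint clusters, for the CD4 (1.53) and CD44 (1.32) antibodies in Treg-like cells relative to all antibody UMIs, and for CD4 antibody in monocyte-like cells on medians (0.524) and without the top 5% of cells (0.478); the cause was not tested. The other 73 summary counts stayed within 1.5 times the reported ones.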

Other observations

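A cluster left unnamed, led by the proliferation genes Top2a and Mki67, held 339 NW and 263 ABX cells. Its CD44 medians were 192 and 207, with Cd44 levels of 304 and 265 CPM.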
